A study of Canis lupus familiaris with 14 samples.

Results

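Collagens, laminins and the proteases that cut them were followed across canine lymph nodes with and without lymphoma. The genes were chosen by name alone. A gene was taken when its single annotated symbol read as a collagen chain (COL, a number, A, a number), a laminin chain (LAMA, LAMB or LAMC and a number), a matrix metalloproteinase (MMP and a number) or an ADAMTS protease (ADAMTS and a number). This gave 81 genes of 15115 on the array, made up of 36 collagen chains, 10 laminin chains, 21 MMPs and 14 ADAMTS proteases.

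Collagens are the structural proteins of the matrix. The fibrillar types carry load, type IV forms the sheet of basement membranes, and the fibril-associated types link fibrils to their surroundings. Laminins are trimers of an alpha, a beta and a gamma chain that anchor endothelium and other cells to basement membrane. MMPs and ADAMTS proteases are secreted or membrane-bound zinc enzymes that process procollagens and cleave matrix, and TIMPs inhibit them. In a lymph node, fibroblastic reticular cells wrap fibres of collagen and laminin that guide lymphocytes, and blood and lymph vessels lie on laminin-rich membranes.

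The samples were 14 lymph node samples from 13 dogs, each on 1 Affymetrix canine array. The B-cell lymphoma label was carried by 7 pet dogs: FS21 (Pitt Bull Terrier/Lab. Retriever Mix), NE41 (Boxer/Pitt Bull Terr. Mix), NE42 (Labrador Retriever), RB03 (Pointer), RB16 (Chesapeake Bay Retriever), and RB07 and RB10 (both Boxer). The T-cell lymphoma label was carried by 3, namely FS22 (Beagle), FS25 (Boxer) and NE45 (Golden Retriever). The 4 normal nodes came from 3 dogs of a Beagle colony, 63, 2970 and 3024, the last sampled as 3024l and 3024r. The lymphomas were naturally occurring and were aspirated through a fine needle at 3 clinics (the letters FS, NE and RB) before any dose of an investigational PI3K inhibitor, and 4 of these dogs (FS21, FS22, FS25 and RB07) had relapsed after earlier chemotherapy. No age is given in the sample labels. The sample labels call the normal material node tissue, whereas the methods of the study call it fine needle aspirate. Breed, colony, way of sampling and disease cannot be told apart in the comparison with normal nodes, and the sources used here do not say which arrays were run together.

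Some arrays stood apart. On 3024l the ratio of the 3′ to the 5′ GAPDH control signal was 23.2, against 3.30 to 8.94 on the other 13 arrays. The label of 3 lymphomas was at odds with their lineage markers. RB07 and RB10, labelled B-cell, had log2 signals of 12.11 and 12.54 for CD3E, a T-cell receptor chain, and of 8.06 and 8.11 for CD79A, a B-cell receptor chain. FS22, labelled T-cell, had 8.80 for CD3E and 10.09 for CD79A. The median signal lay between 85.5 and 131 on all arrays, and 47.2% to 55.7% of probe sets reached a signal of 100.

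Many of the 81 genes were dim. A gene value is the mean of log2 signal over its probe sets, and the 81 genes were read by 190 probe sets. A signal of 100 or more was taken as bright. No array was bright for 38 genes (46.9%, against 21.8% of all genes), 18 were bright on 1 or 2 arrays, 25 on 3 or more (30.9%, against 62.2% of all genes) and 5 on all 14. Between 9 and 23 of the genes were bright on any 1 array. The precision of every value below is limited by the number of arrays.

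The genes bright on 3 or more arrays were lower in lymphoma than in normal nodes for the most part, and 3 of them passed the test. These were COL12A1, a fibril-associated collagen, and the laminin chains LAMA4 and LAMC1. The comparison set the 10 lymphomas against 3 normal dogs, with 3024l and 3024r averaged, in limma over 9400 genes with Benjamini-Hochberg adjustment. Of the 25 matrix genes tested, 3 fell at an adjusted p under 0.05, where 2.6% of all genes tested fell, and 0 rose, where 1.03% of all genes rose. Neither limma at an unadjusted p under 0.05 nor the methods' t-test found any that rose. A lower mean in lymphoma was seen for 20 of the 25 and a higher mean for 5, with a median log2 difference of -1.53 against -0.03 over all genes tested. Values under a signal of 100 have no order, and with every gene value under 100 raised to 100 the medians were -0.62 and 0.03, with 19 of the 25 lower and 6 higher. In 9 of the 25 every lymphoma lay below every normal dog, as in 5.16% of all genes tested. A gene that is bright only in the normal nodes enters the test through those nodes, so these counts describe the 25 genes and say nothing of the other 56. COL12A1, COL3A1, COL4A2, COL6A3, MMP2 and MMP8 were bright on 3 or 4 normal nodes and on at most 2 lymphomas. They entered only through the nodes where they were higher, and their p-values carry that limit. The count of 3 rested on the normal dogs: it was 1 without 63, 0 without 2970 and 1 without 3024, 1 with 3024l as the sole node of its dog, and 6 without the lymphoma RB07. Of all genes tested 3.63% were called in either direction, and this share moved with the count, to 0.944%, 0.0324%, 0.626%, 2.13% and 4.85% in turn.

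**Figure D1:**
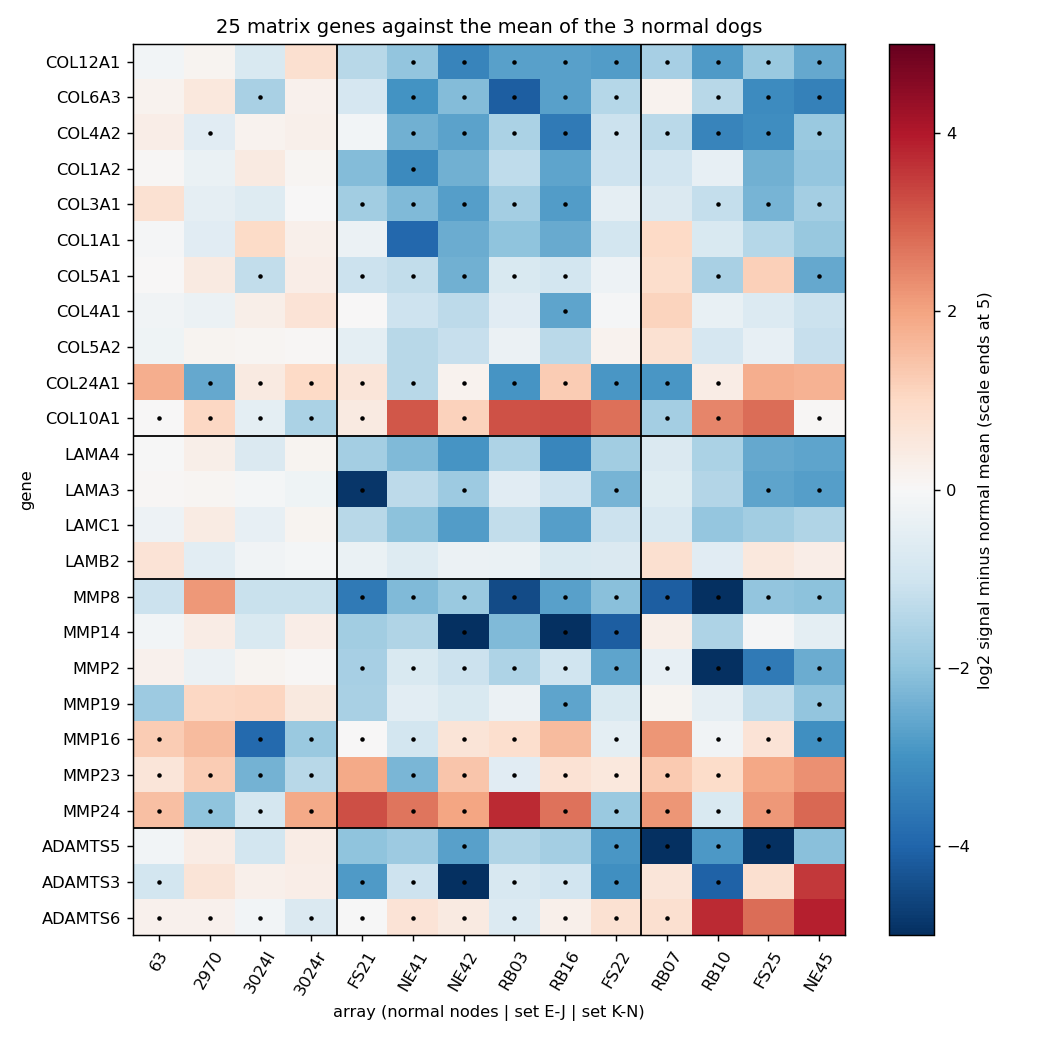
Log2 signal of each of the 25 tested genes on each of the 14 arrays, minus the gene's mean over the 3 normal dogs (colour, red higher and blue lower), with genes grouped as collagens, laminins, MMPs and ADAMTS proteases and arrays as normal nodes, set E-J and set K-N. Black dots mark signals under 100. Blue fills most lymphoma cells of COL12A1, LAMA4 and LAMC1, while RB07 is paler or red for several collagens.

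**Figure D2:**
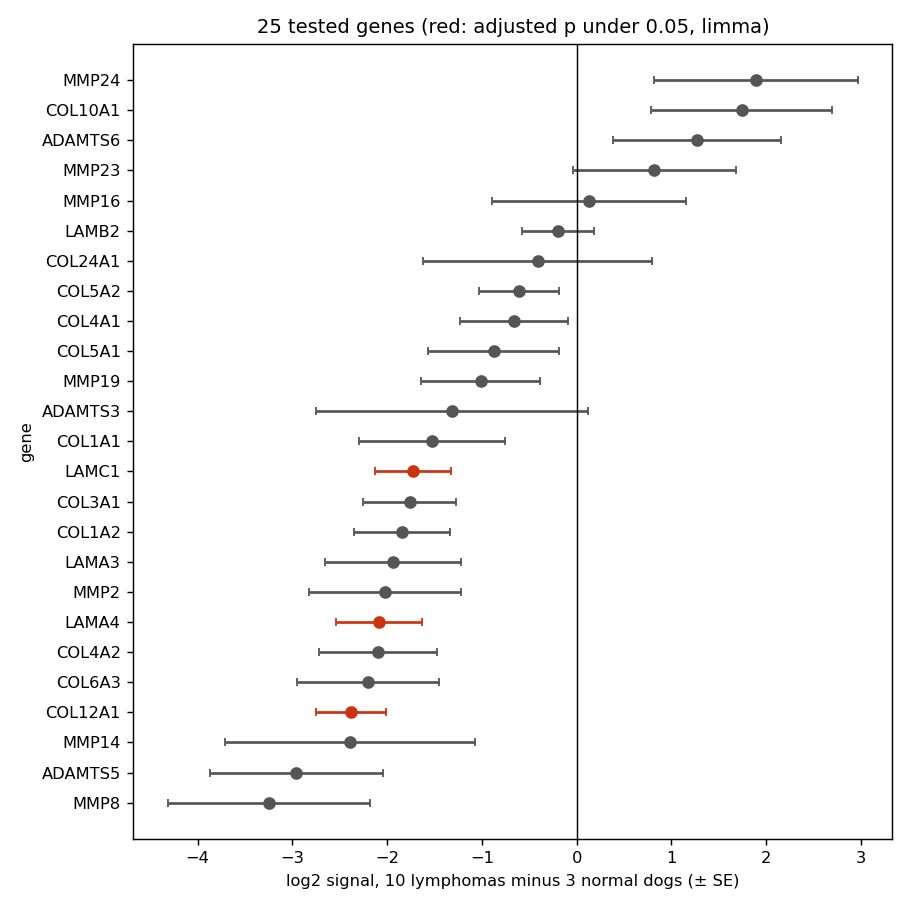
Difference in mean log2 signal between 10 lymphomas and 3 normal dogs for the 25 tested genes, with standard errors from limma as bars. Points to the left are lower in lymphoma, and the 3 red points, COL12A1, LAMA4 and LAMC1, passed an adjusted p of 0.05.

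Among the fibrillar collagens, 6 of 10 genes on the array were tested, all 6 had a lower mean in lymphoma, and 0 passed in limma (2 had an unadjusted p under 0.05, and 1 passed by the methods' t-test). COL1A1 and COL1A2 encode the chains of type I collagen, the main fibre of connective tissue. COL1A1 (Entrez gene 403651) had log2 signals of 10.85 in 63, 10.34 in 2970, 11.85 in 3024l and 11.16 in 3024r. Over the 10 lymphomas its lowest value was 6.96, in NE41, its median 9.23 and its highest 11.88, in RB07. RB07 thus lay with the highest normal node, FS21 (10.59) lay within the normal range, and the other 8 lymphomas lay below it. The difference was -1.53 ± 0.77 (SE) with an adjusted p of 0.307 in limma.

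COL1A2 (Entrez gene 403824) had log2 signals of 9.63, 9.26, 10.01 and 9.67 in the nodes 63, 2970, 3024l and 3024r. Its lowest lymphoma value was 6.40 (NE41), the median 7.53 and the highest 9.17 (RB10). Every lymphoma was below every normal node, by a narrow margin for RB10. The difference was -1.84 ± 0.51 (SE), with an adjusted p of 0.0613 in limma. The partner of type I in reticular fibres, COL3A1, had a difference of -1.76 ± 0.49 (SE) and an adjusted p of 0.0644 in limma. Since 8 lymphomas were under 100 for COL3A1, the difference with these raised to 100 was -1.07. COL5A1 and COL5A2, chains of the type V collagen that sets the diameter of type I fibrils, had differences of -0.88 and -0.61 with adjusted p of 0.535 and 0.465 in limma, and -0.08 and -0.61 with values raised to 100.

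Of the type IV collagens of basement membranes COL4A1 and COL4A2 were tested. COL4A1, the common chain of type IV, had log2 signals of 8.61, 8.50, 9.10 and 9.50 in 63, 2970, 3024l and 3024r. In lymphoma it ran from 6.16 (RB16) through a median of 8.17 to 9.93 (RB07). The groups overlapped, with FS21 and FS22 inside the normal range and RB07 above it. The difference was -0.67 ± 0.57 (SE), with an adjusted p of 0.57 in limma, and -0.62 with values raised to 100. COL4A2, its usual partner in the same trimer, differed by -2.10 ± 0.62 (SE) with an adjusted p of 0.0796 in limma, and 9 of 10 lymphomas lay below every normal dog. These 9 were under 100, as was the lowest normal dog, 2970 (6.42), so they have no order against it. With values raised to 100 the difference of COL4A2 was -0.39, smaller in size than that of COL4A1.

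COL4A3, a type IV chain of a few specialised membranes, was bright on 1 array and was not tested. Its log2 signals in the normal nodes were 6.95, 6.54, 6.22 and 6.45, and the lymphomas ran from 2.39 (FS25) through a median of 4.50 to 6.33 (RB07).

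COL12A1 (Entrez gene 481881) encodes the chain of type XII collagen, which sits on the surface of type I fibrils. Its log2 signals were 7.90 in 63, 8.18 in 2970, 7.28 in 3024l and 8.84 in 3024r. In the lymphomas it ran from 4.74 (NE42) through a median of 5.41 to 6.65 (FS21), and only FS21 reached a signal of 100. All 4 normal nodes lay above all 10 lymphomas. It fell by 2.38 on the log2 scale (SE 0.37, adjusted p 0.00872 in limma). Bright on 4 normal nodes and 1 lymphoma, COL12A1 entered the test only through the nodes where it was higher. Its p-value carries that limit, and most of the lymphoma values behind it lie under 100 and have no order. With signals under 100 raised to 100 the normal dogs were 2.64-fold above the lymphomas. Of its 4 probe sets all 4 had a lower mean in lymphoma. On the brightest of them the normal nodes ran from 8.85 to 10.12 and the lymphomas from 4.60 to 7.86. Its 7 relatives among the fibril-associated collagens were bright on too few arrays to be tested.

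COL6A3 encodes a chain of the beaded filaments of type VI collagen. On the log2 scale it read 7.81, 8.19, 6.01 and 7.87 in the nodes 63, 2970, 3024l and 3024r, and in lymphoma 3.52 (RB03) at the lowest, 5.21 at the median and 7.81 (RB07) at the highest. RB07 equalled the normal dog 63 to 2 decimals, and 9 lymphomas lay below every normal dog. The difference was -2.20 ± 0.75 (SE), with an adjusted p of 0.123 in limma, and -0.87 with the 8 lymphomas under 100 raised to 100. COL10A1, a short-chain collagen of growth cartilage, went the other way at 1.74 ± 0.95 (SE), with an adjusted p of 0.353 in limma, but was under 100 on all 4 normal nodes and 5 lymphomas, and differed by 0.15 with these raised to 100. COL17A1, a transmembrane collagen of epithelial attachment, was dim on every array as a gene and was not tested.

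Of the 10 laminin genes 4 were tested and 2 fell. LAMA4 (Entrez gene 475034) encodes the alpha chain of the laminins of vessel walls. Its log2 signals were 10.72 in 63, 11.03 in 2970, 10.00 in 3024l and 10.85 in 3024r. In lymphoma it ran from 7.45 (RB16) through a median of 8.75 to 10.01 (RB07). RB07 matched 3024l, and the other 9 lymphomas lay below every normal node. LAMA4 fell by 2.09 on the log2 scale (SE 0.45, adjusted p 0.0292 in limma), a 4.25-fold difference. All 4 of its probe sets had a lower mean in lymphoma.

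LAMC1 (Entrez gene 480034) encodes the gamma chain shared by most laminins. Its log2 signals were 11.29 in 63, 11.98 in 2970, 11.14 in 3024l and 11.71 in 3024r. The lymphomas ran from 8.78 (NE42) through a median of 9.95 to 10.76 (RB07). Every normal node lay above every lymphoma, and all 14 arrays were bright. LAMC1 fell by 1.73 on the log2 scale (SE 0.40, adjusted p 0.0374 in limma), a 3.31-fold difference, with a lower mean on all 3 of its probe sets.

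LAMA3, the alpha chain of epithelial laminins, had a difference of -1.93 ± 0.72 (SE) with an adjusted p of 0.155 in limma and no overlap between the groups. With the 5 lymphomas under 100 raised to 100 the difference of LAMA3 was -1.25. LAMB2, a beta chain of vessel and muscle membranes, showed no such gap. Its log2 signals were 8.13, 6.90, 7.25 and 7.36 in 63, 2970, 3024l and 3024r, and ran from 6.68 (RB16) through a median of 7.13 to 8.26 (RB07) in the lymphomas. The groups overlapped throughout, and the difference was -0.20 ± 0.38 (SE) with an adjusted p of 0.833 in limma. LAMB3, a beta chain of epithelial laminins, was under 100 on every array.

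LAMB1, the beta chain that pairs with LAMA4 and LAMC1 in a common vessel laminin, was named after its values were seen. Its 9 probe sets average to a dim gene, which was not tested, although 5 of them were bright on 3 or more arrays. The brightest of these read 10.73, 11.85, 11.92 and 11.76 in 63, 2970, 3024l and 3024r and from 8.33 (NE41) to 10.75 (RB07) in the lymphomas. With each gene read by its brightest probe set, LAMB1 and COL12A1 were called as lower in lymphoma and COL17A1 as higher. The calls of LAMA4 and LAMC1 were lost. These were 3 calls among 42 matrix genes tested, where 2.69% of all genes were called. The COL17A1 probe set was bright on 4 arrays, none of them a normal node. It read 4.06 to 6.13 in the normal nodes and 6.12 to 7.21 in the lymphomas, and values under 100 have no order. Over all the matrix genes 85 probe sets from 43 genes were bright on 3 or more arrays, and 61 of these had a lower mean in lymphoma and 24 a higher one.

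**Figure D3:**
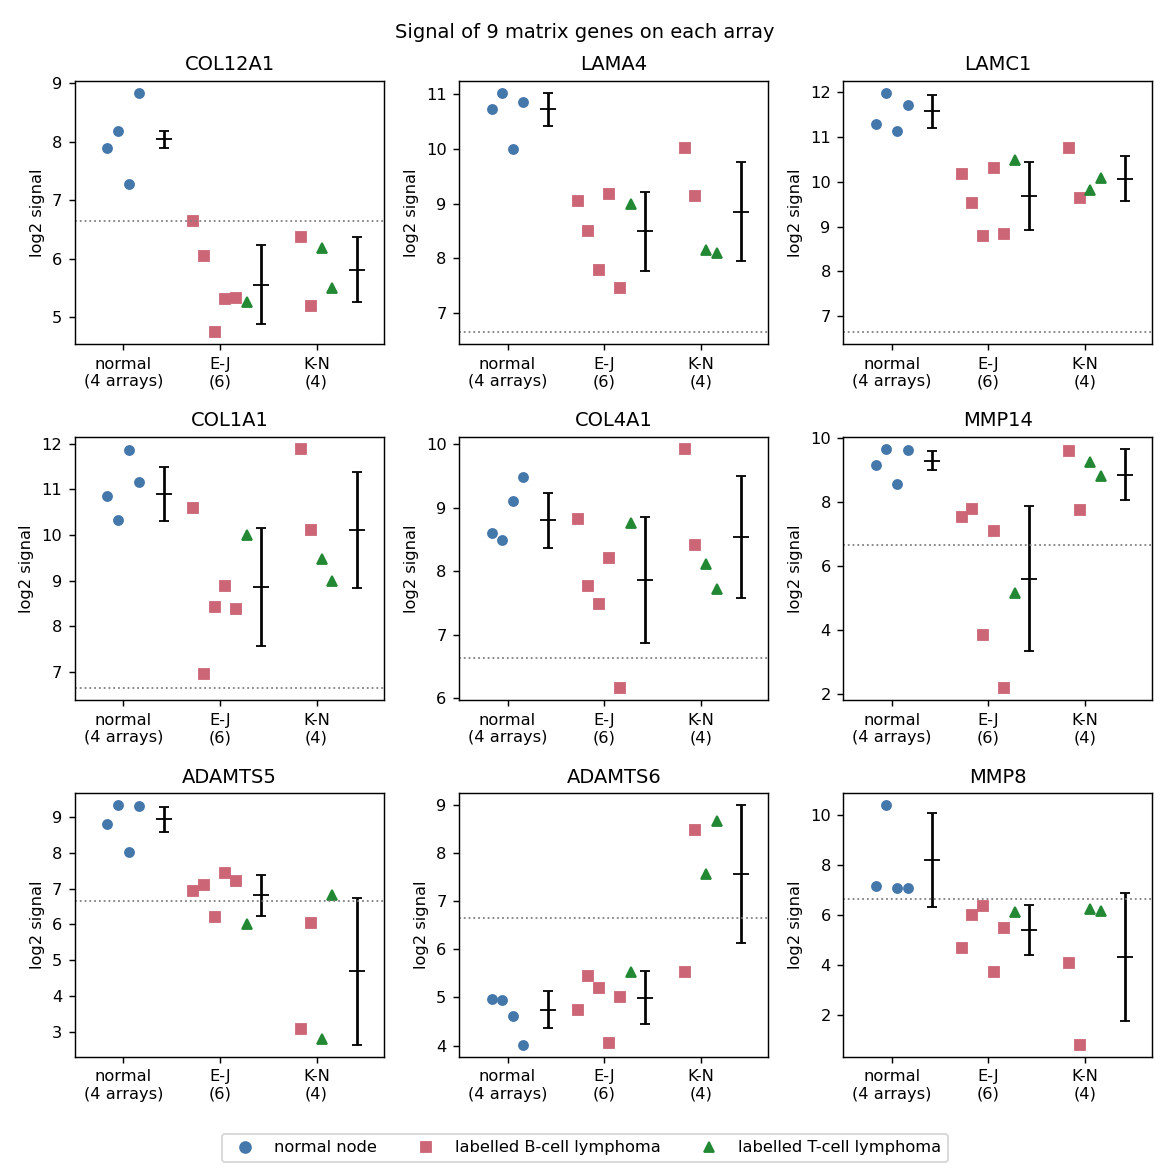
Log2 signal of 9 matrix genes on each array by normal node, set E-J and set K-N, with the mean ± SD beside each group (for normal nodes over 3 dogs) and a dotted line at a signal of 100. Circles are normal nodes, squares lymphomas labelled B-cell and triangles those labelled T-cell. COL12A1 and LAMC1 show no overlap with the normal nodes, MMP14 is near them in set K-N, and ADAMTS6 is high on 3 arrays of K-N.

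The metalloproteinases differed widely from dog to dog. Of 21 MMPs 7 were tested, 4 had a lower and 3 a higher mean in lymphoma, and 0 passed in limma, with 2 at an unadjusted p under 0.05 and 1 past the methods' t-test. The 2 were MMP2 and MMP8, bright on the normal nodes and on no lymphoma. Both entered the test only through the nodes where they were higher, and their p-values carry that limit. MMP14 (Entrez gene 403823) is a collagenase anchored in the cell membrane that also activates the secreted gelatinase MMP2. The normal nodes had log2 signals of 9.13 in 63, 9.63 in 2970, 8.53 in 3024l and 9.61 in 3024r. The lymphomas spanned 2.16 (RB16) to 9.58 (RB07) with a median of 7.63. The values of RB07, FS25 (9.22) and NE45 (8.80) lay among the normal nodes, and those of the other 7 lay below them. The difference was -2.39 ± 1.32 (SE), with an adjusted p of 0.356 in limma, and -1.51 with the 3 lymphomas under 100 raised to 100.

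MMP8, the collagenase of neutrophil granules, had a log2 signal of 10.38 in 2970 and of 7.14, 7.08 and 7.07 in 63, 3024l and 3024r. No lymphoma reached a signal of 100, and they ran from 0.79 (RB10) through a median of 5.72 to 6.34 (NE42). The normal dogs were at least 2.93-fold above the lymphomas, with an adjusted p of 0.111 in limma. That bound rested on 2970, and without this dog it was 1.38-fold. The summed signal of 5 neutrophil markers was 20240 in 2970 and 1313 to 7219 in the other normal nodes, and 208 to 9695 in the lymphomas, the last in RB07. MMP8 was at 4.07 in RB07. The part of neutrophils in the MMP8 values was not tested. MMP9, the neutrophil and macrophage gelatinase, was named after its values were seen. It averaged under 100 on every array, but 1 of its 3 probe sets read 10.20 in 2970 and 9.64 in RB07 and 2.05 to 7.87 on the other arrays.

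MMP2, a gelatinase of fibroblasts, had no overlap between groups and an adjusted p of 0.185 in limma, and since no lymphoma was bright its signal was at least 1.25-fold higher in the normal dogs. Bright on the normal nodes alone, MMP2 entered the test only through them. MMP19, a protease of basement membrane components, ran from 6.77 to 9.65 in the normal nodes and from 5.94 to 8.73 in the lymphomas, with an adjusted p of 0.416 in limma. MMP11, MMP15 and MMP21 were bright on 2 arrays each and were not tested. MMP11, a stromelysin, had a log2 signal of 6.89 in 63 and 7.04 in RB16 and 2.21 to 5.69 on the other arrays.

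Of the 14 ADAMTS proteases 3 were tested, and 0 passed in limma, with 1 at an unadjusted p under 0.05, the same 1 that passed the methods' t-test. This was ADAMTS5 (Entrez gene 487713), a main cleaver of aggrecan and versican. Its log2 signals were 8.81 in 63, 9.31 in 2970, 8.02 in 3024l and 9.28 in 3024r, and the lymphomas ran from 2.82 (FS25) through a median of 6.52 to 7.42 (RB03). All lymphomas lay below all normal nodes. The difference was -2.96 ± 0.91 (SE), with an adjusted p of 0.0911 in limma, and -2.05 with the 5 lymphomas under 100 raised to 100.

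ADAMTS6, a poorly characterised relative, was under 100 on every normal node and every array of E-J. It reached log2 signals of 8.48 in RB10, 7.56 in FS25 and 8.65 in NE45, and between 4.02 and 5.54 on the other 11 arrays. On 5 of its 6 probe sets these 3 arrays lay above all others, and on the sixth FS21 (7.37) exceeded FS25 (7.16). All 3 arrays had a CD3E signal above 12, as did RB07 and the normal node 63, in which ADAMTS6 was at 5.54 and 4.98. The part of T-cell content in these values was not tested. ADAMTS3, which trims the amino end of procollagen, had 10.36 in NE45 alone and at most 7.61 on the other arrays. ADAMTS12 was bright on 1 array, 3024l at 6.65, and was not tested.

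The lymphoma RB07 departed most from the rest. Of the 25 tested genes it lay above every normal dog in 9 and below every one in 12. The other 9 lymphomas lay above in 2 to 6 and below in 14 to 19. All these counts include values under 100, which have no order. Among the 9 genes above in RB07, ADAMTS6, MMP23 and MMP24 were under 100 in RB07 and in every normal dog. The summed signal of all 81 genes was 13530 in RB07, 3869 to 6978 in the other lymphomas and 13170 to 16110 in the normal nodes. For the 36 collagens that sum was 7529 in RB07, above the 7132 of the highest normal node, whereas for the 10 laminins it was 3458, below the 3997 of the lowest. COL1A1 alone gave 3762 of the collagen sum of RB07, and the sum without it was 3767, inside the 3091 to 4038 of the normal nodes. Gene by gene RB07 was mixed in both families. Of 11 tested collagens it lay above every normal dog in 4 (COL1A1, COL4A1, COL5A1 and COL5A2) and below every one in 6, and of 4 tested laminins above in 1 (LAMB2) and below in 3. Of the 6 collagens, COL12A1, COL1A2 and COL3A1 were bright in every normal dog. COL10A1, COL24A1 and COL4A2 were under 100 in RB07 and in at least 1 normal dog, so RB07 has no order against those dogs. Without RB07 limma called COL12A1, COL1A2, COL3A1, COL6A3, LAMA4 and LAMC1, and all 6 were lower in lymphoma, where 4.85% of all genes were called. Here COL12A1, COL3A1 and COL6A3 entered the test only through the normal nodes, where they were higher, and their calls carry that limit.

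**Figure D4:**
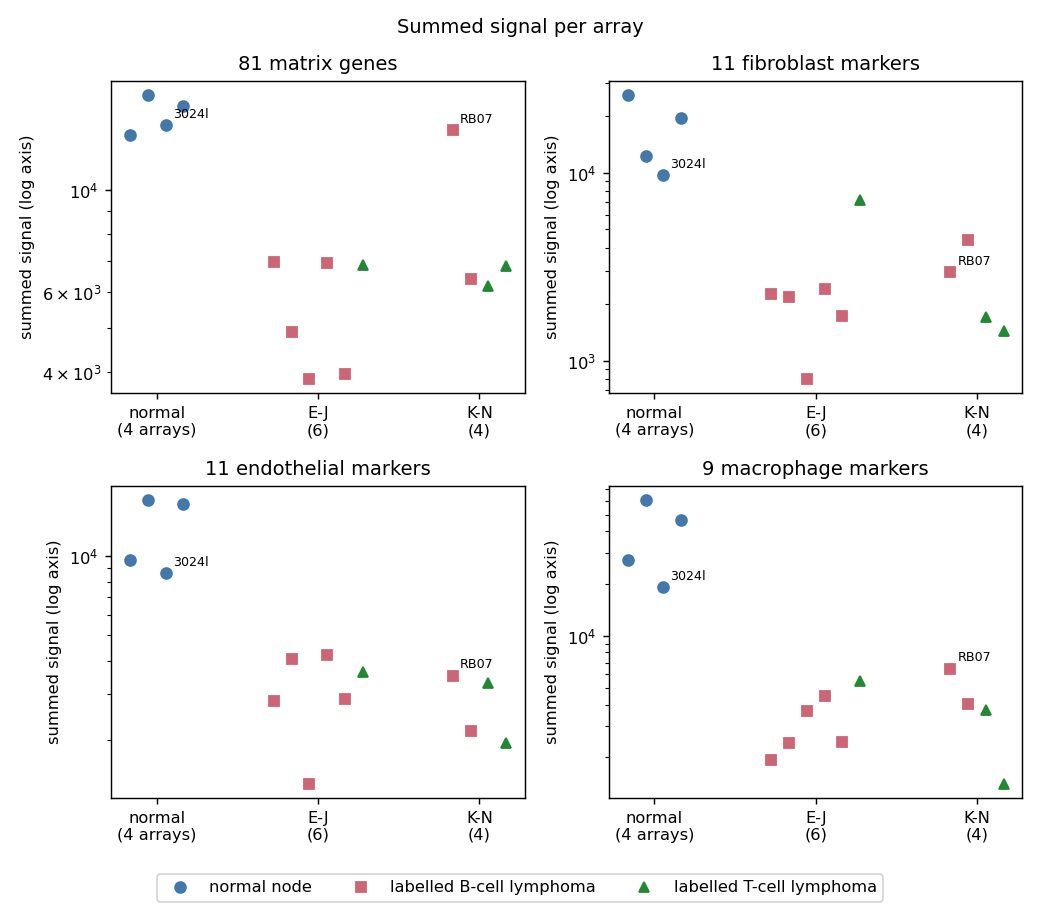
Summed signal per array (log axis) of the 81 matrix genes and of the fibroblast, endothelial and macrophage marker lists, by normal node, set E-J and set K-N, with symbols for the sample label and the arrays RB07 and 3024l named. The sum of the matrix genes in RB07 (13530) is at the level of the normal nodes, while its fibroblast sum (2972) lies with the other lymphomas. Of the lists not drawn, its pericyte and smooth muscle sum (3696) lay above the other lymphomas and below the normal nodes. Its sums for collagen synthesis (9986) and other matrix glycoproteins (4990) lay within the normal range, and that for protease inhibitors (8026) above it.

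Markers of the cells that make matrix moved the same way. Of 11 fibroblast markers 9 were tested, and 6 fell and 0 rose in limma, with a median difference of -3.07. Over all genes tested 2.6% fell and 1.03% rose. With values raised to 100 the 9 fibroblast differences ran from -3.51 (CXCL12) to -0.37 (THY1), with PDGFRA in the middle at -2.04. None of the 9 had a higher mean in lymphoma. The fibroblast markers summed to 9721 to 25930 in the normal nodes and 800.2 to 7194 in the lymphomas. Decorin (DCN), a proteoglycan of collagen fibrils, was at 8.40 to 9.62 in the normal nodes, at 7.46 in RB07 and at 1.59 to 5.08 in the other lymphomas. Of 11 endothelial markers 7 were tested and 3 fell, with sums of 8631 to 16320 against 1368 to 4221. Of 9 macrophage markers 9 were tested and 7 fell, with sums of 19160 to 60520 against 1399 to 6450. Of 7 pericyte and smooth muscle markers 5 were tested and 0 fell in limma, although all 5 had an unadjusted p under 0.05. Their sums were 4226 to 5697 in the normal nodes, 3696 in RB07 and 583.9 to 1513 in the other lymphomas. Whole-sample signals cannot tell fewer cells of a type from less RNA per cell, and the part of these cells in the lower matrix genes was not tested.

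The other genes of matrix assembly, cleavage and binding were mostly lower too, in a comparison where 2.6% of all genes tested fell. Of the 4 inhibitors of matrix proteases on the array, all were tested and 1 fell. TIMP3, the inhibitor that binds to matrix, had log2 signals of 10.61, 11.44, 9.88 and 11.10 in 63, 2970, 3024l and 3024r and ran from 6.55 (FS25) through a median of 7.31 to 9.83 (RB07). It fell by 3.41 on the log2 scale (SE 0.58, adjusted p 0.0104 in limma), and every lymphoma was below every normal node. TIMP1, the secreted inhibitor induced by inflammation, differed by 0.12 (adjusted p 0.961 in limma) and had its highest value, 12.27, in RB07. TIMP2 and RECK, a membrane-bound inhibitor, differed by -1.72 and -1.92, with adjusted p of 0.143 and 0.408 in limma. RECK was under 100 in 8 lymphomas and differed by -0.36 with values raised to 100.

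Of 14 tested genes of collagen synthesis and crosslinking, 13 had a lower mean in lymphoma and 0 passed in limma, with 4 at an unadjusted p under 0.05. The smallest adjusted p was 0.0523, for PCOLCE2, an enhancer of procollagen cleavage, which differed by -2.08. Of 9 other matrix glycoproteins 1 fell, POSTN (periostin), by 3.33 on the log2 scale (adjusted p 0.0153 in limma). Of 8 tested receptors of collagen and laminin 1 fell, ITGA1, the alpha chain of a collagen-binding integrin, by 3.25 (adjusted p 0.00918 in limma). DDR2, a kinase receptor of fibrillar collagen, differed by -3.43 with an adjusted p of 0.107 in limma, and by -0.93 with values raised to 100, 9 lymphomas being under it.

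The 7 lymphomas labelled B-cell gave fewer calls when set against the normal dogs on their own. Of 21 matrix genes tested 1 fell, COL12A1, by 2.38 on the log2 scale (adjusted p 0.0233 in limma). Over all genes tested 1.66% fell and 0.343% rose. Here too COL12A1 entered the test only through the normal nodes. None of the 21 rose, and 9 had an unadjusted p under 0.05. The median difference was -1.85, against -0.03 over all genes. LAMC1 and LAMA4 differed by -1.85 and -1.99, with adjusted p of 0.0629 and 0.0704 in limma. Without RB07 and RB10, whose markers were at odds with the label, 7 genes were called, namely ADAMTS5, COL12A1, COL1A2, COL3A1, LAMA4, LAMC1 and MMP2, while the share of all genes called went from 2% to 7.26%. Of the 7, COL12A1, COL3A1 and MMP2 entered only through the normal nodes, where they were higher, and their calls carry that limit. The count was 5 without RB07 alone, with 3.55% of all genes called, 0 without any 1 of the normal dogs, 3 with 3024r and 0 with 3024l as the sole node of its dog.

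Between lymphomas labelled B-cell and T-cell no matrix gene passed. Of 17 tested 0 were called in limma, 0 had an unadjusted p under 0.05 and 0 passed the methods' t-test. Over all 8567 genes tested the calls were 0% lower and 0% higher, with 313 genes at an unadjusted p under 0.05. The matrix gene with the smallest p was ADAMTS6, at -1.75 ± 0.90 (SE) for B-cell minus T-cell and an adjusted p of 0.956 in limma. LAMC1 differed by -0.42 ± 0.45 (SE) and LAMA4 by 0.31 ± 0.52 (SE). Without RB07, RB10 and FS22, which left 5 arrays against 2, 267 of 7867 genes (3.39%) were called and 0 of 14 matrix genes, with 1, LAMB2, at an unadjusted p under 0.05 in limma (difference -0.90, adjusted p 0.138).

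The study sorted the lymphomas into a set E-J (FS21, NE41, NE42, RB03, RB16 and FS22) and a set K-N (RB07, RB10, FS25 and NE45) from their expression profiles. Since the sets came from these data, their values are described with no test. Over the 25 bright matrix genes the median of E-J minus normal was -1.88 and that of K-N minus normal -0.78, with 20 and 18 genes lower. With values raised to 100 they were -0.85 and -0.41. The median of K-N minus E-J was 0.39 over the 25 genes, against -0.05 over all bright genes, and 0.18 against -0.02 with values raised to 100.

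The largest gap between the sets was that of MMP14. It ran from 2.16 to 7.78 with a median of 6.11 in E-J, and read 9.58, 7.74, 9.22 and 8.80 in RB07, RB10, FS25 and NE45. RB10 lay inside the range of E-J and the other 3 above it. ADAMTS3 and ADAMTS6 followed, with K-N minus E-J of 2.58 and 2.56. With values raised to 100 the gaps were 1.78 for MMP14, 1.36 for ADAMTS3 and 1.19 for ADAMTS6. As measured, the gaps the other way were -2.12 for ADAMTS5, -2.03 for COL6A6, a type VI chain, and -1.79 for MMP15, a membrane-type MMP. The size of these gaps came largely from values under 100, which have no order, although ADAMTS5 was bright on 4 arrays of E-J and 1 of K-N. Raised to 100 they were -0.30 for ADAMTS5, 0 for COL6A6 and -0.04 for MMP15. ADAMTS5 read 3.09 in RB07 and 2.82 in FS25, and from 6.02 to 7.42 in E-J. COL6A6 was under 100 on every array and MMP15 was bright on 2. For the 3 calls of lymphoma against normal, K-N minus E-J was 0.25 for COL12A1, 0.36 for LAMA4 and 0.39 for LAMC1. The median over the 25 genes was 0.39. With values raised to 100 the gap of COL12A1 was -0.002 and the median 0.18, while LAMA4 and LAMC1 did not change.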

How the data were processed

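RNA of 14 lymph node samples was amplified and read on the GeneChip Canine Genome V2.0 Array. The authors deposited signal intensity values per probe set, linear and made with MAS5 as the submitters' processing notes name it, and the methods describe scaling to a trimmed mean. With 2% cut at each end the trimmed mean was 500.1 on all arrays, so no depth applies and the number of arrays limits precision. Of 43035 probe sets, 111 controls were left out, and 29254 with 1 symbol in the platform annotation were taken to log2 and averaged into 15115 genes. RefSeq listed 77 of the 81 matrix symbols under the same Entrez ID. No genome positions or sequences were used here.

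A comparison took in the genes that reached a signal of 100 on 3 or more of its arrays and fitted them with limma 3.58.1 in R 4.3.3 (lmFit, eBayes), Benjamini-Hochberg adjustment over all genes tested and a threshold of 0.05. The design had no covariates. 3024l and 3024r were averaged as 1 dog. Other samples are 1 array per dog, and p-values measure the spread between dogs. The methods' t-test was run beside limma. A fold given as at least a number, and a difference given as raised to 100, used gene values under 100 set to 100, and these differences were added after the data were seen. Plots used Python 3.11.15 and its matplotlib 3.10.9 library. The code was tested on simulated data.

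Named were the matrix genes past the threshold, in each role the gene with the highest mean signal and that with the largest difference, the 3 with the largest gap each way between E-J and K-N, the protease inhibitors, and up to 3 genes of each other list by p. Genes named for comparison beside these were chosen after their values were seen. The members, lists and tests were chosen with earlier results of these data known. Alternatives were the filter, floor, pseudocount (50), scaling, gene summary, test, choice of arrays, clinic as a block and each dog left out. Probe sets with several symbols (439) were left out.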

Additional observations from a re-analysis of the deposited data

Results flagged for a closer look

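In groups of 4 to 10 arrays the highest or lowest value was compared with the rest, and 6 values of the named matrix genes stood apart from their group by Dixon's criterion. Of 44 groups tested, chance alone gives about 1 in 20. Among the 7 lymphomas labelled B-cell, ADAMTS5 was at 3.09 in RB07 (others 6.04 to 7.42), ADAMTS6 at 8.48 in RB10 (others 4.05 to 5.54), LAMB2 at 8.26 in RB07 (others 6.68 to 7.15) and LAMB3 at 1.44 in RB10 (others 4.01 to 5.46). RB07 and RB10 are the arrays whose lineage markers were at odds with that label. Among the 4 normal nodes, MMP11 was at 6.89 in 63 (others 5.52 to 5.67) and MMP8 at 10.38 in 2970 (others 7.07 to 7.14). The normal nodes 3024l and 3024r are from 1 dog. All values are log2 signals. Values under 6.64, a signal of 100, have no order, so the low value of LAMB3, whose group was under 100 throughout, and that of ADAMTS5 say only that these arrays were dim.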

How the results depend on the processing

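The count of matrix genes called in lymphoma against normal was 3. It fell to 1 with no filter and with 3024l as the sole node of its dog, and rose to 9 with signals raised to at least 100, 9 with log2 of signal plus 50, 9 by the methods' t-test and 7 without the relapsed dogs. The share of all genes called was 3.63%, and under these alternatives it was 0.741%, 2.13%, 10.2%, 7.91%, 9.5% and 3.16% in turn. With each dog left out in turn the count ranged from 0 (without normal 2970) to 6 (without RB07). For B-cell lymphoma against normal the count was 1, and it was 0 with no filter and with 3024l alone, 5 with signals raised to at least 100, 5 with log2 of signal plus 50, 2 with the mean of linear signals, 4 by the methods' t-test, 3 with 3024r alone, 7 over the 4 dogs the paper kept, 7 without RB07 and RB10, and 0 to 5 with each dog left out in turn, while the share of all genes called, 2%, ranged from 0.0567% (without normal 2970) to 8.11% (signals raised to at least 100). For B-cell against T-cell lymphoma the count was 0 under every alternative run, clinic as a block included. Quantile normalization and centring kept the same 3 genes in lymphoma against normal and moved the median difference of all genes from -0.03 to 0.06 and 0.07. Over 14 named genes and 340 alternative values, the direction held in 338. The exceptions were ADAMTS3, at 0.13 with signals raised to at least 100, and LAMB2, which ranged from -0.47 (without normal 2970) to 0.15 (without normal 63) with each dog left out in turn. The cause was not tested. Dog as a random block could not be fitted, since 1 dog has 2 arrays and no gene gave a correlation. No paired analysis was possible because the lymphomas and the normal nodes came from different dogs. Dim genes have no order below a signal of 100, and 56 of the 81 genes were too dim to test.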
